A study of Mus musculus with 16 samples.

Results

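The natriuretic peptide system of the mouse heart was followed through 7 genes: the peptide genes Nppa and Nppb, the convertase genes Corin and Furin, and the receptor genes Npr1, Npr2 and Npr3. These genes were chosen by name and were matched through the GENCODE annotation to 7 of the 55573 genes in the count table, and all 7 passed the filter that left 19955 genes for testing. RNA-seq had been carried out on the ventricles of 16 male mice, 4 hearts in each of 4 groups, with 45166994 to 68274222 counts per heart. Every mouse was of the genotype aMHC-MerCreMer;Trbp-Flox/Flox, in which the aMHC promoter drives a tamoxifen-dependent Cre recombinase in cardiomyocytes and the Trbp alleles are floxed. In Trbp-cKO mice, deletion was induced from the age of 4 weeks by tamoxifen, 30 mg/kg once a day for 5 days, while control mice had received corn oil on the same days. Mice of both kinds then underwent either sham surgery or transverse aortic constriction (TAC), which narrows the aorta and puts the left ventricle under pressure, and hearts were collected about 8 weeks later, at the age of 16 weeks. Control mice thus carried the same Cre and floxed alleles and differed from Trbp-cKO mice by tamoxifen as well as by the deletion. Mice without Cre that had been given tamoxifen were not analysed here, so that tamoxifen and the deletion cannot be told apart.

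ANP and BNP, the peptide hormones encoded by Nppa and Nppb, are made by cardiomyocytes as precursors. Corin, a transmembrane serine protease of cardiomyocytes, cleaves the ANP precursor, and Furin, a convertase of the secretory pathway found in most cell types, cleaves the BNP precursor. Both peptides act through Npr1, a receptor guanylyl cyclase that raises cGMP, while Npr2 is the corresponding receptor for the related peptide CNP and Npr3 is the clearance receptor that takes the peptides up. In the adult ventricle Nppa is low compared with the atrium, and Nppa and Nppb are textbook markers of cardiomyocyte stress.

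Tarbp2, the gene that encodes Trbp, was at 32.2 ± 1.15 CPM (counts per 1e6 counts of the library; SD, n = 4) in sham and 27.0 ± 4.74 in TAC hearts of control mice, and 9.53 ± 1.31 and 8.62 ± 1.10 in those of Trbp-cKO mice. Its log2 fold change with the deletion was -1.76 in sham hearts (adjusted p = 2.38e-05) and -1.65 after TAC (adjusted p = 1.17e-05). Some libraries stood apart. Control TAC replicates 1 and 2 held 38.2% and 38.8% of their counts on the mitochondrial chromosome (Wilson 95% intervals 38.14% to 38.17% and 38.77% to 38.79%, for counting error only), against 18.2% to 26.3% in the remaining hearts, and their summed levels of 8 ventricular cardiomyocyte markers were 23654 and 18529 CPM, against 25795 to 49043. Trbp-cKO TAC replicate 4 had the lowest ventricular marker sum of its group, 25795 CPM. Because whole ventricle was sequenced, fewer cells of a type and less RNA per cell cannot be told apart.

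Nppa and Nppb are neighbours on chromosome 4 of GRCm38. Nppb covers bases 147985788 to 147987205 and Nppa bases 148000722 to 148002079, both on the plus strand, with 13516 bases between them. Sequences at or before the starts of the peptide genes and of Npr3 are shown because these are the genes whose levels changed in the comparisons that follow. They come from RefSeq (GRCm38.p6), run 5′ to 3′ on the strand of the gene, and have matches to the GATA, NKX2-5, MCAT, AP-1 and CArG motifs in capitals. The Nppa window, chr4:148000472-148000721 on the plus strand, and the Npr3 window, chr15:11907372-11907621 on the minus strand, hold the 250 bases before the RefSeq transcript start. For Nppb, the GENCODE transcript starts 112 bases before the RefSeq start, so the 138 bases before the GENCODE start are given (chr4:147985650-147985787) and, apart from them, the 27 bases that hold the motif matches (chr4:147985795-147985821). That stretch lies before the RefSeq start but inside the transcript as GENCODE places it, in the 5′ UTR.
Nppa: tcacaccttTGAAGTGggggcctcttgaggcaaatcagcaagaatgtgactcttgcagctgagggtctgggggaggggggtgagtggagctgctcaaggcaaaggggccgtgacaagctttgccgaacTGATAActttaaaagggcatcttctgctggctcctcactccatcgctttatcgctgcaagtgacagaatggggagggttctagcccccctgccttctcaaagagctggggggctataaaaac
Nppb, upstream: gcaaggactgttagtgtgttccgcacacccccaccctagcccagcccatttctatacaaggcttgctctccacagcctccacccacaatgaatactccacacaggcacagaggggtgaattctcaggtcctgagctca
Nppb, motif stretch: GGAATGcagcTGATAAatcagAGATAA
Npr3: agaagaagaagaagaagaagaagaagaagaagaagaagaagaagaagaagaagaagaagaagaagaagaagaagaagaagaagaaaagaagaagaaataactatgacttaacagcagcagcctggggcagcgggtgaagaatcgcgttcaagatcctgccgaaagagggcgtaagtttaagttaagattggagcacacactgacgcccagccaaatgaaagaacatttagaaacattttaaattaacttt

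Motifs were searched on both strands in the 250 bases before the RefSeq starts of the 7 genes, which have 8 windows because Furin has 2. The first of 4 words searched for the cardiac GATA factors was AGATAA, the second was AGATAG, the third form was TGATAA and the last form was TGATAG. The word for NKX2-5 was TNAAGTG, the MCAT word of TEAD factors was CATTCC, the AP-1 word was TGANTCA and the E-box word was CANNTG. The Nppa window held an NKX2-5 word at -241 (bases relative to the start), a GATA word at -122 and 2 E-boxes. The Nppb window held, all within the GENCODE 5′ UTR, an MCAT word on the minus strand at -105, GATA words at -95 and -84 and an E-box at -99, which overlaps the GATA word at -95. Among the other genes, the first window of Furin held an NKX2-5 word at -206, which overlaps an E-box, and the Npr3 window, which opens with a long run of GAA repeats, held only an E-box. No window held an exact match to the AP-1 word or to the CArG box of SRF. Near matches, which differ from a motif by a base, were not searched, so a CArG-like site is not excluded. Of all 32851 promoter windows of the RefSeq table, 26.5% held a GATA word, 10.1% an NKX2-5 word, 12.6% an MCAT word, 66.2% an E-box, 6.75% an AP-1 word and 1.47% a CArG box. These matches describe the sequence only.

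**Figure D1:**
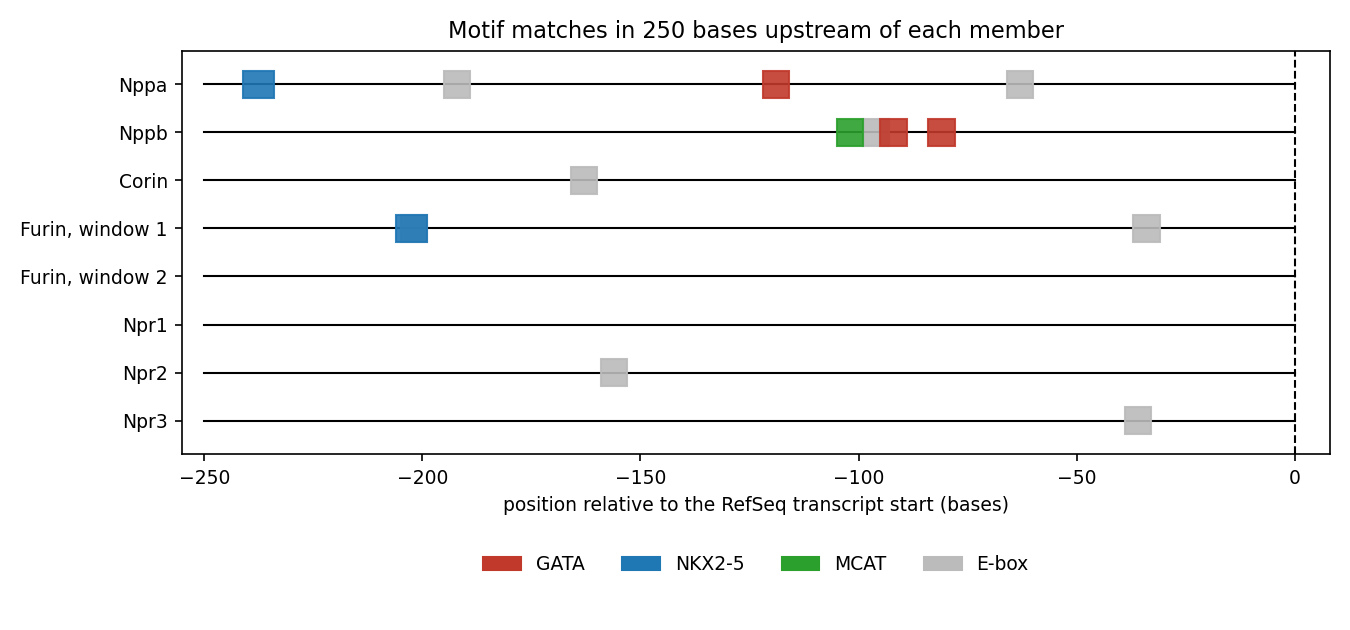
Motif matches (coloured boxes) in the 250 bases upstream of the RefSeq start of each gene, with the position relative to that start in bases on the horizontal axis. The Nppb matches lie between -105 and -79, before the RefSeq start but inside the GENCODE 5′ UTR. GATA words were found in 2 of the 8 windows, those of Nppa and Nppb, where 26.5% of all promoter windows held one.

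The levels of the 7 genes spanned a wide range, and their order was almost the same in each group. Per kilobase of exon, control sham hearts held 846 ± 248 CPM of Nppa (SD, n = 4), 321 ± 27.8 of Nppb, 27.99 ± 3.90 of Corin, 12.8 ± 0.423 of Npr2, 7.65 ± 0.171 of Furin, 7.51 ± 0.500 of Npr1 and 1.46 ± 0.361 of Npr3. In this order only Furin and Npr1 overlapped between hearts. Control TAC hearts overlapped also at Corin and Npr2 and at Npr2 and Npr1, and Npr1 was there above Furin in the mean. The largest displacement was that of Nppa in Trbp-cKO TAC hearts, which reached 14343 ± 2662 CPM per kilobase. As a share of all counts, Nppa rose from 0.0700% ± 0.0192 in control sham to 0.281% ± 0.0932 in control TAC and from 0.130% ± 0.0238 in Trbp-cKO sham to 1.32% ± 0.290 in Trbp-cKO TAC hearts. Even the scarcest gene, Npr3, had at least 501 counts in every heart, so the spread between hearts and not counting error set the precision.

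A gene was called changed when its adjusted p was at most 0.05 and its absolute log2 fold change at least 0.8. After TAC in control hearts, Nppa and Nppb were called higher, 2 of the 7 genes, where 2.5% of all tested genes were called higher. The deletion in sham hearts gave no call among the 7, where 0.967% of all tested genes were called in either direction. Among the 7, 1 gene (Nppa) had an unadjusted p under 0.05 there in edgeR's quasi-likelihood test, as had 13.7% of all tested genes, and neither edgeR's exact test nor DESeq2 called any. After TAC, the deletion was accompanied by higher Nppa, Nppb and Npr3, 3 of 7 against 1.55% of all tested genes called higher. The same 3 genes were called higher after TAC in Trbp-cKO hearts, where the share over all tested genes was 3.23%. The interaction, which asks whether the TAC effect differed between Trbp-cKO and control hearts, was called for Nppb alone, 1 of 7, where 0.446% of all tested genes were called higher. The comparisons share groups of hearts, so they are not independent of each other. All 4 hearts of a group lay above all 4 of the other for Nppa and Nppb after TAC in control hearts (8.64% of all tested genes did so), for Nppa, Nppb and Npr3 between TAC groups (6.12%) and for Nppa, Nppb, Npr3 and Furin after TAC in Trbp-cKO hearts (9.05%). In sham hearts only Furin separated the groups, lower with the deletion, as 6.96% of all tested genes did. The median log2 fold change over the 7 genes was 0.14, 0.01, 0.68, 0.32 and 0.66 in these 5 comparisons, and over all tested genes it was 0.02, 0.01, -0.01, -0.0016 and -0.01.

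**Figure D2:**
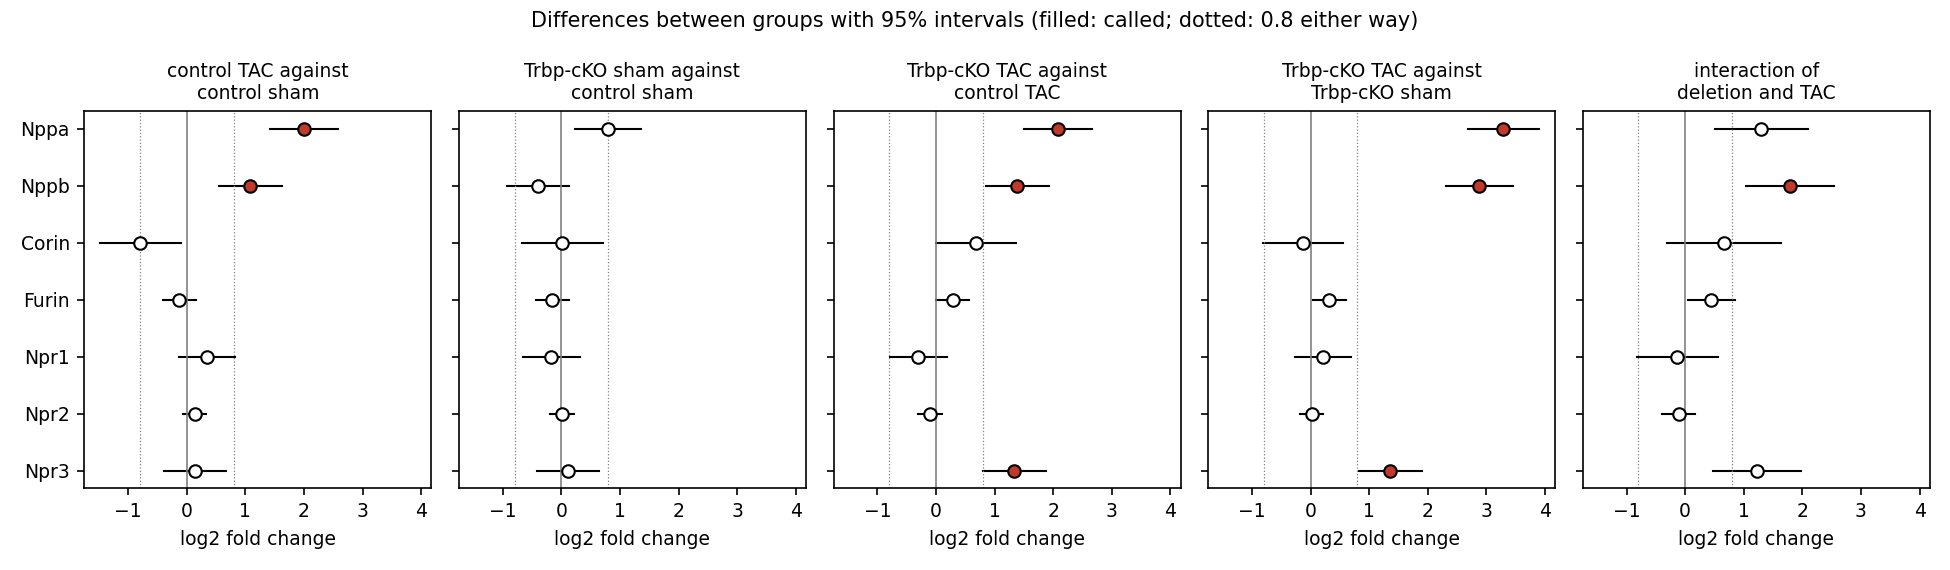
Log2 fold changes of the 7 genes in the 5 comparisons (points) with 95% intervals (lines), where filled points passed both thresholds and dotted lines mark a log2 fold change of 0.8 in either direction. Nppa and Nppb were higher after TAC in both control and Trbp-cKO hearts, Npr3 only passed in the comparisons with Trbp-cKO TAC hearts, and the intervals of Npr2 are the narrowest.

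Nppa, which encodes ANP, was at 597, 775, 1016 and 539.7 CPM in control sham replicates 1 to 4. In control TAC hearts it was at 3858, 3404, 1615 and 2800.4 CPM. Trbp-cKO sham hearts held 1209, 1336, 1514 and 1007 CPM, and Trbp-cKO TAC hearts 11757, 10253, 11949 and 15668 CPM. Every TAC heart thus lay above every sham heart of its kind (control or Trbp-cKO), every Trbp-cKO TAC heart lay above every control TAC heart by a wide margin, and the sham groups overlapped by a single pair of hearts. After TAC, Nppa was 3.99-fold higher in control hearts (95% interval 2.67 to 5.97; log2 fold change 2.00, standard error 0.27, adjusted p = 0.00109). In Trbp-cKO hearts it was 9.80-fold higher after TAC (6.41 to 15.0; log2 fold change 3.29, standard error 0.29, adjusted p = 8.02e-06). Between TAC groups it was 4.25-fold higher in Trbp-cKO hearts (2.84 to 6.37; log2 fold change 2.09, standard error 0.27, adjusted p = 0.000512). Without control TAC replicates 1 and 2, the log2 fold change of Nppa was 1.59 in control hearts after TAC (adjusted p = 0.0155) and 2.48 between TAC groups (adjusted p = 0.000822).

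In sham hearts Nppa was 1.73-fold higher with the deletion (95% interval 1.17 to 2.56), with a log2 fold change of 0.79 (standard error 0.27) and an adjusted p of 0.163, so it was not called. This result moved with the test: the adjusted p was 0.0447 in a quasi-likelihood fit of the 2 groups alone, 0.00363 in edgeR's exact test and 0.0477 in DESeq2, with the log2 fold change just under 0.8 in each, and the full set of alternatives gave 0.00363 to 0.879. The log2 fold change itself ran from 0.66 without control sham replicate 4 to 0.98 without control sham replicate 3, and was 1.39 with a clock gene score as covariate (adjusted p = 0.879). That score was 1.11 to 2.41 in control sham and -1.93 to -1.64 in Trbp-cKO sham hearts. It thus separated the groups compared, and the fit with it could hardly tell the deletion from the score. The interaction of Nppa was a log2 difference of 1.296 (SE 0.37, adjusted p = 0.112) and was not called, while DESeq2 gave 1.32 (adjusted p = 0.0112) and adjusted p over the alternatives ran from 0.0112 to 0.772. The difference ran from 0.63 with the clock score to 1.69 without control TAC replicates 1 and 2.

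**Figure D3:**
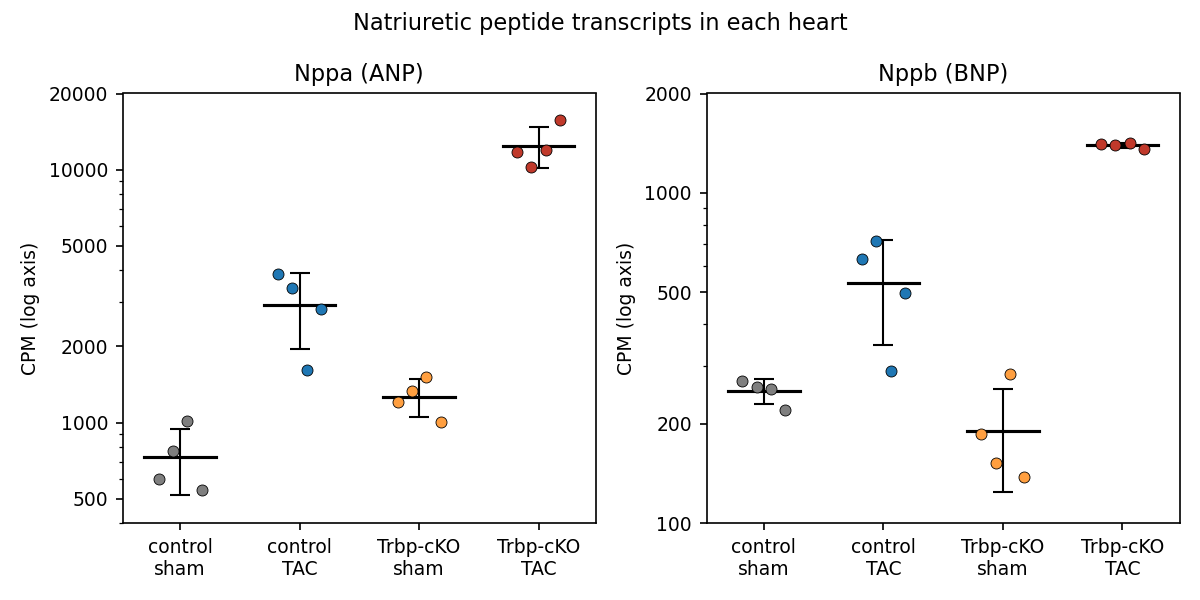
CPM of Nppa and Nppb in each heart (points) on log axes, with the group mean (horizontal line) and SD (bars, n = 4). The 4 Trbp-cKO TAC hearts stand above all other hearts for both genes, between 10253 and 15668 CPM for Nppa and between 1355 and 1418 CPM for Nppb.

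A second transcript lies across Nppa. Gm13054, an antisense gene on the opposite strand, shares 532 bases of exon with Nppa, and its counts came to at most 7.24% of those of Nppa in any heart. Gm13054 was higher after TAC in control hearts by 3.87 on the log2 scale (adjusted p = 0.00117), in Trbp-cKO hearts by 4.98 (adjusted p = 5.5e-05) and between TAC groups by 2.22 (adjusted p = 0.0191). Without control TAC replicates 1 and 2 the first value was 2.48 (adjusted p = 0.00880) and the last 3.59 (adjusted p = 0.000989). The interaction of Gm13054 was 1.11 (adjusted p = 0.459), or 2.50 without those hearts (adjusted p = 0.0455). The sources used here do not state whether counting used the strand, so the reads of Gm13054 and Nppa cannot be told apart. With the counts of both summed, the same genes of the 7 were called in each comparison. The antisense genes across Corin, Furin, Npr1, Npr2 and Npr3 had at most 5.00% of the counts of their partner. Of these, Gm5144, which shares 321 exon bases with Npr3, was higher after TAC in Trbp-cKO hearts (log2 fold change 1.09, adjusted p = 0.0262). It did not pass in the other comparisons.

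Nppb, which encodes BNP, was at 270.0, 258, 255 and 219.6 CPM in control sham and at 631, 714, 288 and 496 CPM in control TAC hearts. Trbp-cKO sham hearts held 186, 153, 282 and 137 CPM, and Trbp-cKO TAC hearts 1408, 1392, 1418 and 1355 CPM. The TAC hearts of control and of Trbp-cKO mice lay above their sham counterparts, although control TAC replicate 3 was only slightly above the highest control sham heart. The Trbp-cKO TAC hearts lay close together, with a coefficient of variation of 2.00%, against 8.67% in control sham, 34.9% in control TAC and 34.3% in Trbp-cKO sham hearts. After TAC, Nppb was 2.12-fold higher in control hearts (95% interval 1.46 to 3.08; log2 fold change 1.09, standard error 0.25, adjusted p = 0.0229) and 7.35-fold higher in Trbp-cKO hearts (4.95 to 10.9; log2 fold change 2.88, standard error 0.27, adjusted p = 1.33e-05). Between TAC groups it was 2.62-fold higher in Trbp-cKO hearts (1.80 to 3.81; log2 fold change 1.39, standard error 0.25, adjusted p = 0.00567).

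The TAC effect on Nppb was larger in Trbp-cKO than in control hearts by a log2 difference of 1.79 (SE 0.36, adjusted p = 0.0300). In sham hearts Nppb had a log2 fold change of -0.40 with the deletion (95% interval -0.94 to 0.13, adjusted p = 0.535), opposite in sign to that of Nppa. The call of Nppb after TAC in control hearts did not survive without control TAC replicate 1 (log2 fold change 0.99, adjusted p = 0.0762), without replicate 2 (0.91, adjusted p = 0.0741) or without both (0.65, adjusted p = 0.332), nor without any 1 of the 4 control sham hearts (adjusted p = 0.0508 to 0.0696). Its interaction was 2.23 without control TAC replicates 1 and 2 (adjusted p = 0.00735), but its adjusted p passed the threshold no longer on leaving out control sham replicate 1 or 3, Trbp-cKO sham replicate 2 or 4, or Trbp-cKO TAC replicate 1 or 3 (adjusted p = 0.0538 to 0.0676). The difference itself was 1.59 to 2.05 over all 16 fits that left out a heart. With the replicate number as a block, Nppb was not called after TAC in control hearts (1.08, adjusted p = 0.0572) or for the interaction (1.80, adjusted p = 0.0854), nor with the clock score (1.21, adjusted p = 0.152, and 1.54, adjusted p = 0.718). In a quasi-likelihood fit of only the 2 groups compared, Nppb was not called after TAC in control hearts (adjusted p = 0.0738) or between TAC groups (adjusted p = 0.0794).

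The balance of the 2 peptide transcripts was described by a ratio that was chosen after the values of both genes had been seen, and none of its tests passed the correction. Per kilobase of exon, Nppa over Nppb was 2.63 ± 0.709 (SD, n = 4) in sham and 4.99 ± 0.507 in TAC hearts of control mice, and 6.31 ± 1.29 and 8.06 ± 1.65 in those of Trbp-cKO mice. The highest control sham heart, at 3.60, was below the lowest control TAC heart at 4.30 and the lowest Trbp-cKO sham heart at 4.85, and the highest control TAC heart, at 5.52, was below the lowest Trbp-cKO TAC heart at 6.65. Each of these 3 comparisons gave an exact permutation p of 0.0286, two-sided, the smallest that 4 hearts against 4 allow, and an adjusted p of 0.0762 over the 8 ratio tests. Trbp-cKO TAC and Trbp-cKO sham hearts overlapped in this ratio (exact permutation p = 0.171).

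**Figure D4:**
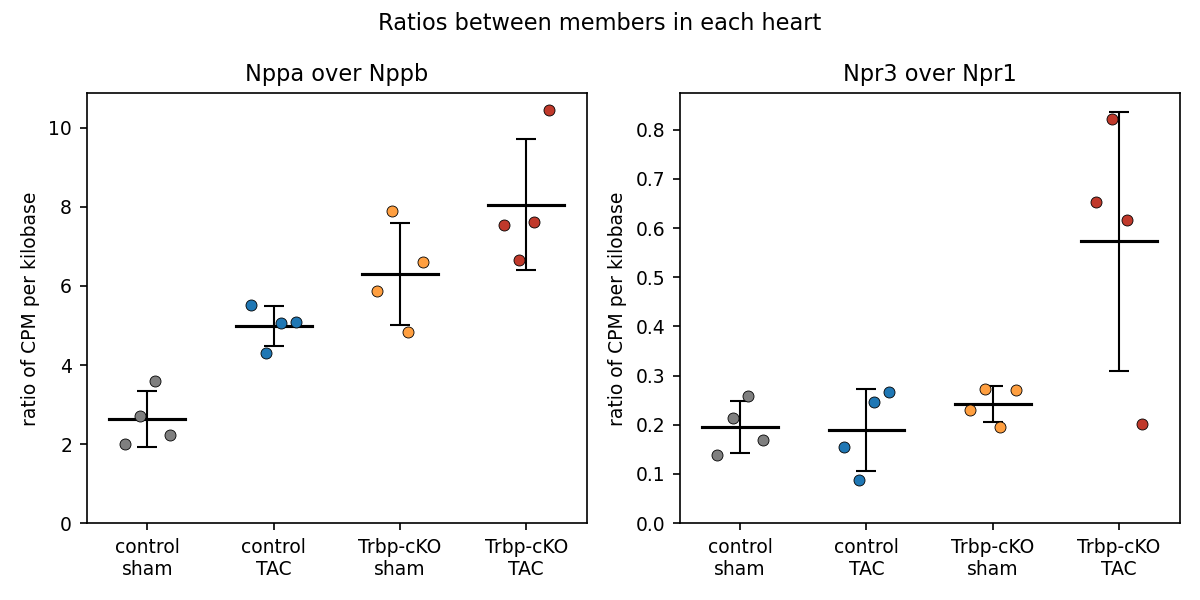
Ratios of CPM per kilobase in each heart (points), with the group mean (line) and SD (bars, n = 4), for Nppa over Nppb and for Npr3 over Npr1. Nppa over Nppb is lowest in the control sham hearts, all under 3.60, and Npr3 over Npr1 is over 0.616 in 3 Trbp-cKO TAC hearts but 0.202 in the other.

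The convertase genes were not called in any comparison. Corin was at 146, 169.7, 165 and 123 CPM in control sham and at 54.3, 37.2, 120.4 and 137 CPM in control TAC hearts. Trbp-cKO hearts held 147, 185, 107 and 173 CPM after sham and 166, 150.2, 139 and 106 CPM after TAC surgery. Control TAC replicates 1 and 2 were far below all other hearts, and the remaining hearts of the 4 groups overlapped. These are also the hearts with the lowest ventricular marker sums, and the part of cell composition in their low Corin was not tested. Corin had a log2 fold change of -0.79 after TAC in control hearts (95% interval -1.48 to -0.10, adjusted p = 0.140). That value was -0.23 without control TAC replicates 1 and 2 (adjusted p = 0.839), and leaving out replicate 4 gave -1.10 (adjusted p = 0.0379), which was a call. Between TAC groups Corin differed by 0.68 (95% interval from just under 0 to 1.37, adjusted p = 0.237), or by 0.11 without both hearts (adjusted p = 0.851).

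Furin was at 70.9, 68.1, 71.8 and 70.0 CPM in control sham and at 51.0, 53.3, 74.6 and 77.7 CPM in control TAC hearts. Trbp-cKO sham hearts held 64.9, 63.2, 57.9 and 65.3 CPM, and Trbp-cKO TAC hearts 86.7, 81.2, 79.2 and 66.0 CPM. All Trbp-cKO sham hearts were below all control sham hearts and after TAC every Trbp-cKO heart was above those with sham surgery, although by less than 1 CPM in the latter case. The log2 fold change of Furin was -0.16 with the deletion in sham hearts (95% interval -0.44 to 0.12, adjusted p = 0.679) and 0.32 after TAC in Trbp-cKO hearts (0.04 to 0.60, adjusted p = 0.159). In the latter comparison the adjusted p was 0.0272 without control TAC replicates 1 and 2, which enter the fit through the shared spread and the scaling, with a log2 fold change of 0.31 that stayed under the threshold. After TAC in control hearts Furin had a log2 fold change of -0.13 (adjusted p = 0.541), and between TAC groups of 0.29 (adjusted p = 0.222).

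Among the receptor genes, Npr3 alone was called. This gene of the clearance receptor was at 9.35, 15.3, 17.3 and 13.04 CPM in control sham, at 13.5, 11.7, 16.05 and 19.2 in control TAC and at 11.4, 15.2, 17.0 and 15.8 in Trbp-cKO sham hearts. In Trbp-cKO TAC hearts it was at 45.02, 47.4, 40.1 and 19.9 CPM. The first 3 of these hearts were far above all others, whereas replicate 4 was barely above the highest control TAC heart. Npr3 was 2.52-fold higher in Trbp-cKO TAC than in control TAC hearts (95% interval 1.74 to 3.66; log2 fold change 1.34, standard error 0.25, adjusted p = 0.00685). Compared with Trbp-cKO sham hearts it was 2.56-fold higher (1.77 to 3.72; log2 fold change 1.36, standard error 0.25, adjusted p = 0.00273). The summed level of 4 endocardial markers was 64.7 to 116 CPM in control TAC, 57.6 to 95.3 CPM in Trbp-cKO sham and 72.3 to 173 CPM in Trbp-cKO TAC hearts, and that of 6 fibroblast markers 702 to 1184, 750.0 to 975 and 965 to 1389 CPM. The ranges of the Trbp-cKO TAC hearts overlapped those of both other groups for each list. Tested singly, 1 of the 4 endocardial markers passed the adjusted p as higher against Trbp-cKO sham, and 0 against control TAC. The median log2 fold changes were 0.82 and 0.50. Of the 6 fibroblast markers, 1 passed as higher in each comparison, with medians of -0.07 and -0.04. Col1a1 of that list was at 374 ± 107 CPM after TAC with the deletion, 187 ± 49.5 in control TAC and 112 ± 18.8 in Trbp-cKO sham. Within the Trbp-cKO TAC group, replicate 4 had the lowest Npr3 and the highest endocardial, fibroblast and endothelial sums. The part of these cells in the Npr3 values was not tested. After TAC in control hearts, the log2 fold change of Npr3 was 0.14 (-0.39 to 0.67, adjusted p = 0.751), and with the deletion in sham hearts it was 0.12 (-0.41 to 0.65, adjusted p = 0.909).

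The TAC effects on Npr3 in Trbp-cKO and control hearts were 1.22 apart on the log2 scale (95% interval 0.47 to 1.97, adjusted p = 0.112), which was not called. Without Trbp-cKO TAC replicate 4 this interaction was 1.43 (adjusted p = 0.0209), and DESeq2 gave 1.24 (adjusted p = 0.0269). Between TAC groups, Npr3 was not called without control TAC replicates 1 and 2 (log2 fold change 1.10, adjusted p = 0.0665) or in a fit of those groups alone (1.32, adjusted p = 0.0881).

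Npr1, the guanylyl cyclase receptor of ANP and BNP, was at 34.3, 36.2, 34.001 and 39.2 CPM in control sham and at 44.0, 68.8, 33.1 and 36.5 CPM in control TAC hearts. It was at 25.2, 28.4, 44.4 and 29.7 CPM after sham surgery and at 35.1, 29.4, 33.1 and 50.2 CPM after TAC in Trbp-cKO mice. All groups overlapped. In control TAC, Trbp-cKO sham and Trbp-cKO TAC hearts the heart with the highest Npr1 also had the highest sum of 6 endothelial markers in its group, at 1732, 1270.1 and 1264 CPM, whereas in control sham hearts it had the lowest sum, 836 CPM against up to 954 CPM. The part of endothelial RNA in the Npr1 values was not tested. The log2 fold changes of Npr1 ran from -0.30 between TAC groups (95% interval -0.79 to 0.18, adjusted p = 0.470) to 0.34 after TAC in control hearts (-0.14 to 0.83, adjusted p = 0.334), and the latter was -0.05 without control TAC replicates 1 and 2.

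Npr2, the receptor for CNP, ranged from 51.6 to 70.5 CPM over the 16 hearts, with group means of 60.0 ± 1.97 CPM in sham and 65.7 ± 3.78 in TAC hearts of control mice, and 60.3 ± 6.32 and 61.2 ± 4.96 in those of Trbp-cKO mice (SD, n = 4). Its log2 fold changes lay between -0.11 and 0.13 in the 5 comparisons. The 95% intervals of the 4 differences between groups lay between -0.30 and 0.33, which leaves out a change of the size seen for Npr3. The ratio of Npr3 to Npr1 per kilobase, chosen after seeing the values, was 0.195 ± 0.0524 in sham and 0.189 ± 0.0839 in TAC hearts of control mice, and 0.242 ± 0.0371 and 0.573 ± 0.263 in those of Trbp-cKO mice. It did not separate the groups (exact permutation p = 0.0857 between TAC groups and 0.114 between Trbp-cKO groups).

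**Figure D5:**
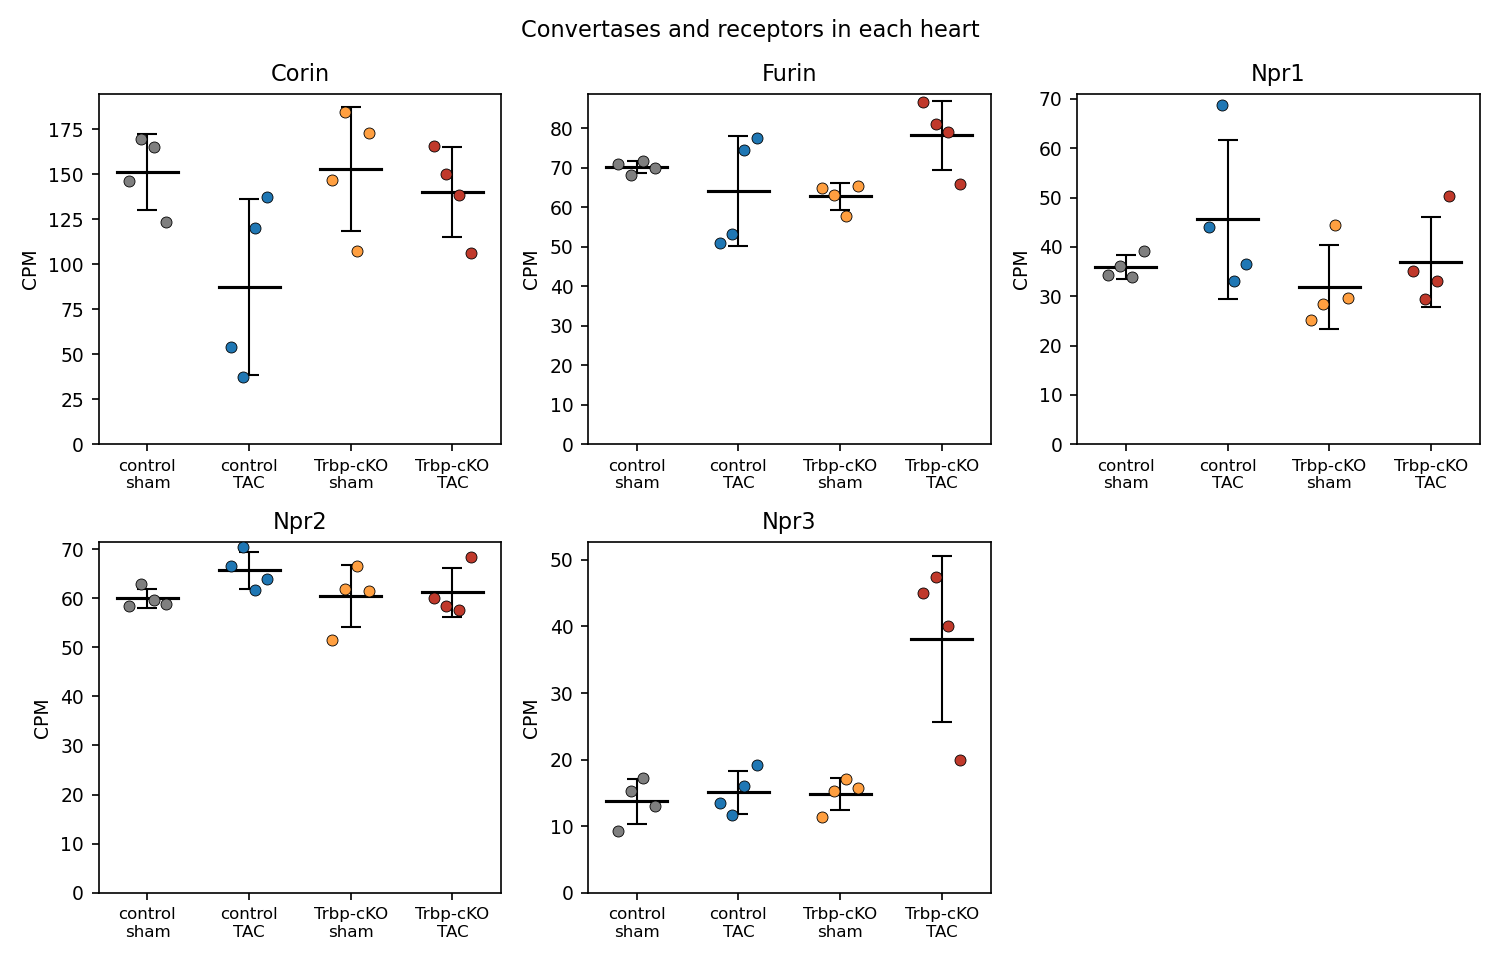
CPM of Corin, Furin, Npr1, Npr2 and Npr3 in each heart (points, replicates 1 to 4 from left to right), with the group mean (line) and SD (bars, n = 4). Corin is lowest in control TAC replicates 1 and 2 at 54.3 and 37.2 CPM, and Npr3 is at 40.1 CPM or more in 3 of the 4 Trbp-cKO TAC hearts.

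Within groups, several of the 7 genes varied together from heart to heart. Correlations of log2 CPM were computed over the 16 hearts after the group mean had been subtracted, for all 21 pairs, with permutation tests adjusted over the pairs. The permutations shuffled all 16 hearts without regard to group. They therefore allow neither for the group means that were subtracted nor for unequal spread between groups, and the p-values can be too small, which matters most for pairs near the threshold. Of the 21 pairs, 11 passed the adjusted p by Pearson's r. The share among pairs of other genes was not computed, so this count cannot be read as particular to the 7 genes. Corin and Furin varied together (Pearson r = 0.894, permutation p = 1e-05, the smallest possible, adjusted p = 0.00021; Spearman rho = 0.812, p = 0.00027, adjusted p = 0.00336). Npr1 and Npr2 did so as well (r = 0.814, permutation p = 7e-05, adjusted p = 0.00049; rho = 0.803, p = 0.00039, adjusted p = 0.00336). Corin ran against Npr1 (r = -0.819, permutation p = 7e-05, adjusted p = 0.00049; rho = -0.682, p = 0.00484, adjusted p = 0.0203), and so did Furin (r = -0.744, permutation p = 0.00096, adjusted p = 0.00504; rho = -0.782, p = 0.00048, adjusted p = 0.00336). Nppa and Nppb had an r of 0.720 (permutation p = 0.00174, adjusted p = 0.00731) and a rho of 0.565 (p = 0.0248, adjusted p = 0.0567).

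Without the 2 hearts farthest from the median of the gene named first, r was 0.855 for Corin and Furin, 0.778 for Npr1 and Npr2, -0.742 for Corin and Npr1, -0.881 for Furin and Npr1 and 0.624 for Nppa and Nppb. Without control TAC replicates 1 and 2, these values were 0.883, 0.826, -0.769, -0.797 and 0.667. The hearts share depth and cell composition, whose part in these correlations was not tested. Nppb ran against Corin (r = -0.696, permutation p = 0.00344, adjusted p = 0.0120; rho = -0.653, p = 0.00749, adjusted p = 0.0262). Furin ran against Nppa (r = -0.644, permutation p = 0.00740, adjusted p = 0.0195; rho = -0.612, p = 0.0143, adjusted p = 0.0381) and against Npr2 (r = -0.600, permutation p = 0.0134, adjusted p = 0.0281; rho = -0.697, p = 0.00345, adjusted p = 0.0181). For the pair of Nppb and Furin, r was -0.610 (permutation p = 0.0125, adjusted p = 0.0281) and rho -0.541 (p = 0.0324, adjusted p = 0.0567), and for Nppb and Npr1 r was 0.640 (permutation p = 0.00744, adjusted p = 0.0195) and rho 0.482 (p = 0.0588, adjusted p = 0.0950). Without the 2 hearts farthest from the median of the gene named first in the order of the opening, r was -0.610 for Nppb and Corin, -0.667 for Nppa and Furin, -0.710 for Furin and Npr2, -0.510 for Nppb and Furin and 0.427 for Nppb and Npr1. Npr3 had an r of 0.569 with Furin (permutation p = 0.0208, adjusted p = 0.0397; rho = 0.553, p = 0.0282, adjusted p = 0.0567; r = 0.556 without the 2 farthest hearts), of -0.147 with Nppa (permutation p = 0.587) and of -0.131 with Nppb (permutation p = 0.624).

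The genes most like Nppa over the 16 hearts, among 12953 genes with a mean log2 CPM of at least 1, were Tspan17 (Pearson r = 0.984), Iah1 (0.981), Gm41505 (0.980), the antisense gene Gm13054 (0.979) and Clec11a (0.977). Those most like Nppb were Ccn2, a matricellular protein gene (0.963), Mgat5b (0.961), Gdf15, a stress-responsive cytokine gene (0.961), Mtpn (0.958) and Trim47 (0.957). These values follow the differences between groups. With the group means subtracted, the highest values for Nppa were those of Cacng7 (0.882), Tmem237 (0.878), Mindy3 (0.865), Blvrb (0.856) and Clec11a (0.838), and those for Nppb were Oas1a (0.949), Ccdc77 (0.914), Cchcr1 (0.906), Rnf25 (0.891) and Arpc3 (0.886). Clec11a was the only gene on both lists of Nppa, and no gene was shared with the lists of Nppb.

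Of 15 other genes of the pathway, 13 were tested, while Nppc, which encodes CNP, and Ostn were at or under 0.14 CPM in the mean of every group. Of all tested genes, 6.29%, 1.68%, 5.53%, 9.94% and 1.05% passed the adjusted p in either direction in the 5 comparisons, in the order given above. After TAC in control hearts, 1 of 13 passed the adjusted p: Pde9a, a cGMP phosphodiesterase, rose from 2.50 ± 0.584 to 5.97 ± 2.24 CPM (log2 fold change 1.25, adjusted p = 0.0293). It did not pass without control TAC replicate 1 or 2 or control sham replicate 1, 2 or 3 (adjusted p up to 0.102), and without control TAC replicates 1 and 2 together its log2 fold change was 0.70 (adjusted p = 0.477). After TAC in Trbp-cKO hearts, 1 rose and 2 fell. Pam, an amidating enzyme abundant in atrial granules, rose from 428 ± 94.7 to 933 ± 161 CPM (log2 fold change 1.12, adjusted p = 0.0134). Mme, which encodes neprilysin, a peptidase that degrades natriuretic peptides, fell from 8.04 ± 0.687 to 2.84 ± 1.18 CPM (log2 fold change -1.499, adjusted p = 0.00386). Pcsk6, the convertase that activates Corin, fell from 72.0 ± 2.72 to 43.2 ± 5.40 CPM (log2 fold change -0.74, adjusted p = 0.00333). In control hearts the sham and TAC means were 8.51 ± 0.577 and 5.24 ± 2.36 CPM for Mme and 62.5 ± 6.13 and 49.0 ± 10.7 for Pcsk6. Both were thus lower after TAC there too, without passing, while Pam was at 452 ± 78.5 and 487 ± 203 CPM. None of the 13 passed for the deletion in sham hearts, for the deletion after TAC or for the interaction in edgeR's quasi-likelihood test. In these 3 comparisons 0, 5 and 2 of the 13 had an unadjusted p under 0.05, as had 13.7%, 21.4% and 15.4% of all tested genes. After TAC in control and in Trbp-cKO hearts 5 and 4 had one, as had 26.6% and 23.0% of all tested genes. Between TAC groups, Pam had a log2 fold change of 0.94 (adjusted p = 0.0504) and Mme of -0.88 (adjusted p = 0.0910). The median log2 fold change of the 13 was 0.06, 0.09, 0.03, -0.15 and -0.07 in that order. Without control TAC replicates 1 and 2 the first and the third of these values were -0.11 and -0.18, and the last was -0.20, and Mme passed between TAC groups (-1.35, adjusted p = 0.00761).

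Of 13 transcription regulators of Nppa and Nppb, none passed the adjusted p in the higher direction in edgeR's quasi-likelihood test, and 9, 2, 3, 4 and 5 had an unadjusted p under 0.05 in either direction, as had 26.6%, 13.7%, 21.4%, 23.0% and 15.4% of all tested genes. Mef2a fell after TAC in control hearts, from 159 ± 11.2 to 114 ± 11.2 CPM (log2 fold change -0.48, adjusted p = 0.0341). It did not pass without control TAC replicate 1 or 2 or without any 1 of the control sham hearts (adjusted p up to 0.112), and its log2 fold change was -0.36 without control TAC replicates 1 and 2 together (adjusted p = 0.352). Jarid2, a chromatin regulator, was at 22.0 ± 2.16 CPM in control TAC hearts and at 26.0 ± 2.33 (sham) and 15.9 ± 0.874 (TAC) in Trbp-cKO mice, and fell between TAC groups (log2 fold change -0.47, adjusted p = 0.0132) and after TAC in Trbp-cKO hearts (-0.70, adjusted p = 0.000308). The median log2 fold change of the 13 was -0.58, -0.17, 0.22, -0.04 and 0.50. Without control TAC replicates 1 and 2 it was -0.12 after TAC in control hearts, where 1 of the 13 then had an unadjusted p under 0.05 against 10.1% of all tested genes, -0.07 between TAC groups and 0.10 for the interaction. Other genes of the list passed the adjusted p in that fit: Myocd with the deletion in sham hearts (-0.79, adjusted p = 0.0120), Hand2 between TAC groups (-0.89, adjusted p = 0.00646), and Tbx5 (-0.93, adjusted p = 0.00244), Tbx20 (0.53, adjusted p = 0.0129) and Hand2 (-0.49, adjusted p = 0.0228) after TAC in Trbp-cKO hearts. The shares of all tested genes that passed there were 3.41%, 3.98% and 14.7% in these comparisons.

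Of 6 genes that accompany Nppa and Nppb in hypertrophy, Ankrd1, a stress-responsive ankyrin repeat gene, and Xirp2, a gene of the intercalated disc, rose after TAC in both control and Trbp-cKO hearts. Ankrd1 was at 1689 ± 96.7, 4705 ± 268, 2540.0 ± 218 and 6402 ± 789 CPM in control sham, control TAC, Trbp-cKO sham and Trbp-cKO TAC hearts, with log2 fold changes of 1.48 (adjusted p = 7.24e-05) and 1.33 (adjusted p = 2.8e-05) after TAC and 0.59 (adjusted p = 0.0419) with the deletion in sham hearts. The last of these passed in only 4 of the 16 fits that left out a heart, with log2 fold changes of 0.53 to 0.63 (adjusted p up to 0.149). Xirp2 had log2 fold changes of 1.48 (adjusted p = 0.00572) and 2.45 (adjusted p = 3.79e-05) after TAC. None of the 6 passed between TAC groups or for the interaction. In each of these, 1 gene had an unadjusted p under 0.05 in edgeR's quasi-likelihood test, as had 21.4% and 15.4% of all tested genes. Between TAC groups Myh7, the slow myosin heavy chain gene, had a log2 fold change of -0.21 (adjusted p = 0.487) and Acta1, the skeletal actin gene, of 0.35 (adjusted p = 0.734). Without control TAC replicates 1 and 2, Myh7 passed after TAC in control hearts (0.68, adjusted p = 0.0469) and in Trbp-cKO hearts (0.47, adjusted p = 0.0170).

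Atrial tissue, which expresses Nppa strongly, was looked for with 8 atrial markers. Myl7 was at 0.293 to 0.479 CPM in Trbp-cKO TAC hearts and at or under 0.182 CPM in every other heart, with a log2 fold change of 2.25 between TAC groups (adjusted p = 0.125) and of 2.40 after TAC in Trbp-cKO hearts (adjusted p = 0.0863), which did not pass. Transcripts of Sln, Bmp10 and Mybphl were all near 0, at group means of at most 0.24 CPM. The summed level of the 8 ran from 42.9 to 65.0 CPM in the control sham, control TAC and Trbp-cKO sham groups and from 51.9 to 109 CPM in Trbp-cKO TAC hearts, and came mostly from Kcnj3, Stard10 and Dkk3. Of the 6 that were tested, Dkk3 (log2 fold change 1.31, adjusted p = 0.0158) and Myl4 (1.90, adjusted p = 0.00019) were higher in Trbp-cKO TAC than in control TAC hearts, while Kcnj3 (-1.17, adjusted p = 0.1002) and Stard10 (-0.51, adjusted p = 0.0830) had values below 0 and did not pass. Both passed without control TAC replicates 1 and 2 (-1.83, adjusted p = 0.00208, and -0.74, adjusted p = 0.0229). Myl4, at 1.53 ± 0.414 and 5.69 ± 1.53 CPM, was also called for the interaction (1.64, adjusted p = 0.0201), which did not pass without control sham replicate 3 or Trbp-cKO sham replicate 4 (adjusted p up to 0.0556). With Trbp-cKO TAC replicate 4 left out, Dkk3 differed between TAC groups by a log2 fold change of 0.95 (adjusted p = 0.0274) and Myl4 by 1.77 (adjusted p = 0.000398). After TAC in Trbp-cKO hearts, 2 of the 6 rose and 2 fell, where 9.94% of all tested genes passed the adjusted p in either direction. Between TAC groups that share of all tested genes was 5.53%. The highest sum, 109 CPM, and the highest Nppa were those of Trbp-cKO TAC replicate 4, and without that heart Nppa was higher by 1.96 on the log2 scale between TAC groups (adjusted p = 0.00114). The part of atrial tissue in the Nppa values was not tested.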

How the data were processed

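Ventricular RNA of 16 hearts was sequenced as paired reads of 150 bases. Per the labels and the paper's methods, the authors used Cutadapt 2.3 for trimming, HISAT2 2.1.0 for alignment to GRCm38 and StringTie 1.3.4 with its count script for gene counts. The deposited values are whole-number counts per gene and heart, with no normalization or filter. Whether the counting used the strand, and the GENCODE release, are not given in the sources used here, and the script's assumed read length can scale all counts by a common factor. Symbols and positions were taken from GENCODE M21, which placed 55394 of 55573 genes.

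Counts were analysed with edgeR 4.0.16 in R 4.3.3. After edgeR's default filter and TMM scaling, a robust quasi-likelihood model was fitted to the 16 hearts with 1 term per group, and 5 comparisons were tested. Adjusted p are Benjamini-Hochberg values over 19955 genes, and calls used the thresholds that the authors name (0.05 and 0.8). CPM use library sizes adjusted by TMM, and log2 CPM with a prior count of 2. Intervals are 95%. Group means are given with the SD (n = 4). Ratios were compared by exact permutation tests and correlations by 100000 permutations, both two-sided (scipy 1.17.1). DESeq2 1.42.0, edgeR's exact test and the other alternatives are in the closing section.

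The 7 genes were named by their place in the pathway. Other genes are named where they pass the adjusted p in a fixed list (15 pathway genes, 13 regulators, 6 companions of hypertrophy), where a small count needs a name, where their log2 CPM is most like that of Nppa or Nppb (5 genes each), or as markers. The members and lists were chosen with earlier results of these data known. Ratios, the sum with Gm13054, scaling factors without Nppa and Nppb, leaving out control TAC replicates 1 and 2, and leaving out hearts for other genes and lists were added after seeing the data. Each library is labelled a separate biological replicate, and no columns were duplicates.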

Additional observations from a re-analysis of the deposited data

Results flagged for a closer look

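The TAC effect on Nppb differed between Trbp-cKO and control hearts: the log2 fold change after TAC was 2.88 in Trbp-cKO and 1.09 in control hearts, a difference of 1.79 (adjusted p = 0.0300). The difference was 1.59 to 2.05 with a heart left out, and its adjusted p passed the threshold no longer without any 1 of 6 hearts. No heart stood apart from the others of its group by Dixon's test in any of the 28 combinations of gene and group, where chance would flag about 1 in 20. With 4 hearts that test finds at most a single heart and misses a pair, such as control TAC replicates 1 and 2 for Corin.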

How the results depend on the processing

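Members called numbered 2, 0, 3, 3 and 1 in the 5 comparisons (control TAC against control sham, Trbp-cKO sham against control sham, Trbp-cKO TAC against control TAC, Trbp-cKO TAC against Trbp-cKO sham, interaction). Scaling by library size only, other fold thresholds, the exact test, other filters, halved counts, leaving out mitochondrial genes, Nppa summed with Gm13054 and TMM without Nppa and Nppb left these counts as they were (the exact test, which compares pairs of groups, gave no interaction). After TAC in control hearts the count fell to 1 (Nppa) in a fit of only the 2 groups compared, with a clock gene score as covariate and without control TAC replicates 1 and 2. Between TAC groups it fell to 1 (Nppa) in the fit of 2 groups and to 2 (Nppa and Nppb) without control TAC replicates 1 and 2. For the interaction it was 3 in DESeq2 and 0 with the clock score. The clock score differs between the groups, so that covariate also takes up differences between groups. Leaving out a heart gave 1 to 3, 0 to 0, 3 to 3, 3 to 3 and 0 to 2 calls.

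The replicate numbers did not pair the hearts: correlations of same-numbered hearts ran from -0.43 to 0.21, only 3 of 24 were above 0.1, and 1 of 16 hearts correlated best with its own number. With the replicate block, 1, 0, 3, 3 and 0 members were called. Nppb was the gene lost under the block, with a log2 fold change of 1.08 after TAC in control hearts (adjusted p = 0.0572) and an interaction of 1.80 (adjusted p = 0.0854).

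Each value whose sign turned was one that was not called, and the cause was not tested. With the clock score as covariate these were Npr3 (-0.082) after TAC in control hearts. In sham hearts they were Corin (-0.31), Npr1 (0.28) and Npr3 (-0.30). In Trbp-cKO TAC against sham hearts they were Corin (0.058), Npr1 (-0.059) and Npr2 (-0.057). Without control TAC replicates 1 and 2, Furin was 0.12 and Npr1 -0.047 after TAC in control hearts, and Npr1 was 0.075 between TAC groups and 0.25 for the interaction. DESeq2 gave -0.0011 for Npr2 in sham hearts, and library size scaling 0.038 for Npr2 between TAC groups, where that scaling moved the median of all genes from -0.01 to 0.13. With a heart left out, Corin ran from -0.085 to 0.156, Npr2 from -0.041 to 0.068 and Npr3 from -0.042 to 0.236 in sham hearts. Npr3 ran from -0.017 to 0.261 after TAC in control hearts, Npr2 from -0.052 to 0.069 in Trbp-cKO TAC against sham hearts and Npr1 from -0.313 to 0.138 for the interaction.

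Over all tested genes, main and alternative counts differed by over 1.5 times after TAC in control hearts (748 called, against 304 in the fit of 2 groups, 383 with the replicate block, 58 with the clock score, 121 without control TAC replicates 1 and 2, 1148 in DESeq2, 1256 with no fold threshold and 277 to 1583 with a heart left out). In sham hearts 193 were called, against 429 in the fit of 2 groups, 601 in the exact test, 380 in DESeq2, 107 with the replicate block, 0 with the clock score, 325 without control TAC replicates 1 and 2, 336 with no fold threshold and 74 to 268 with a heart left out. Between TAC groups 491 were called, against 84 in the fit of 2 groups, 764 in DESeq2, 274 with the replicate block, 327 at a fold threshold of 1, 1103 with none and 287 to 743 with a heart left out. In Trbp-cKO TAC against sham hearts 1112 were called, against 294 with the clock score and 1983 with no fold threshold. For the interaction 174 were called, against 552 in DESeq2, 54 with the replicate block, 1 with the clock score, 103 with no filter and 57 to 397 with a heart left out. Causes of these shifts were not tested.

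Depth did not limit these genes, since the lowest count of any was 501. With 4 hearts a group, smaller differences could not be separated from the spread, and transcripts were measured, not peptides.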
